A study of Mus musculus with 14 samples.

Results

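Glul, the gene of glutamine synthetase, was examined with 100 kb on either side in peak lists of GATA2, RUNX1 and elongating RNA polymerase II. The gene was chosen by its polymerase values: of 3489 protein-coding genes of at least 2 kb that were covered for 50% or more of their length in either genotype, it had the largest loss of coverage in knockout cells. It is 1 gene of 19304 such protein-coding genes, of which 9986 had any coverage. The data came from G1ER cells, a mouse erythroblast line without a working Gata1 gene of its own, in which estradiol switches on a GATA1 fusion protein, grown with EPO and SCF. The knockout (KO) cells were Chd7-/-, that is, without the chromatin remodelling ATPase CHD7, and the wild-type (WT) cells were the same line with Chd7. Estradiol is named in the labels for a differentiation assay, and whether the cells used for immunoprecipitation had received it is not stated. GATA2 and RUNX1 had 1 library per genotype, and polymerase phosphorylated at serine 2 (S2P, a mark of elongating polymerase) had 2 libraries per genotype, which the labels tie to 1 peak list. Whether the KO cells were 1 clone is not stated. As each genotype had a single list for each target, replicate spread is unknown and no difference between genotypes was tested.

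Glutamine synthetase joins ammonia to glutamate to make glutamine, which cells use for nucleotide and amino acid synthesis, and its transcription and protein level respond to the supply of glutamine. GATA2 is a zinc finger factor that holds blood progenitors in an immature state and gives way to GATA1 during red cell maturation. RUNX1 is a factor of blood formation that binds DNA with its partner CBFB. S2P accumulates along the transcribed body of a gene and is highest near and past its end, where transcripts are cleaved and polymerase terminates.

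Values are given as fragments, the number of sequenced fragments stacked at the summit of a peak, each with an exact Poisson 95% interval in parentheses that covers counting error only. The lists held 165206 KO and 163620 WT peaks for S2P, 80611 KO and 68199 WT peaks for GATA2, and 35281 KO and 28952 WT peaks for RUNX1. Median summits held 35 KO and 34 WT fragments for S2P, 24 KO and 23 WT for GATA2, and 37 KO and 38 WT for RUNX1. To compare genotypes, each count was set relative to the smallest background seen in its list, namely 7.07 (KO) and 7.00 (WT) fragments for S2P, 1.57 and 1.48 for GATA2, and 1.39 and 1.37 for RUNX1. All 8 erythroblast markers, among them Klf1, Alas2 and Epor, had S2P coverage in both lists (22.6% to 100% of their length in KO and 18.5% to 100% in WT). Of 6 markers of other blood cells only Csf1r was covered (10.9% in KO and 11.6% in WT), and 4 markers of liver and glia, where glutamine synthetase is abundant, were at 0 in both.

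Glul lies on chromosome 1 from 153899929 to 153909723 (GRCm38), a length of 9795 bp, and is read from the plus strand. The 250 bases before its start are shown because RUNX1 occupied them in both genotypes. They come from RefSeq (GRCm38.p6, chr1:153899679-153899928, plus strand), and capitals mark matches to CCAAT, to the E-box CAGCTG and to the GC box GGGCGG.

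Glul upstream: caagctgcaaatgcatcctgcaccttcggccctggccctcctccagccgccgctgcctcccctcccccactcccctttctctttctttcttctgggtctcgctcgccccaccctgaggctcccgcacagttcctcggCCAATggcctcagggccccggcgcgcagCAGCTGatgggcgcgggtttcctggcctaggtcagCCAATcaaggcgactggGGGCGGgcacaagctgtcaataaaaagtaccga

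This stretch had a G and C content of 64.8%. On both strands it held no TGTGGT, the core recognised by RUNX factors, and no GATAA, which are present in 14.0% and 22.6% of 32851 RefSeq promoters over the same 250 bases. It held CAGCTG 85 bp before the start (13.0% of promoters), CCAAT 113 and 50 bp before it (33.8%) and GGGCGG 33 bp before it (32.7%), and none of these matches overlapped another. The RUNX1 summits lay 57 bp (KO) and 79 bp (WT) before the start, within the printed bases. The E-box match begins at position 153899844 and the WT summit is at 153899850. The KO summit is at 153899872, nearer to the CCAAT match that begins at 153899879. Whether RUNX1 is held at either match was not tested.

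**Figure D1:**
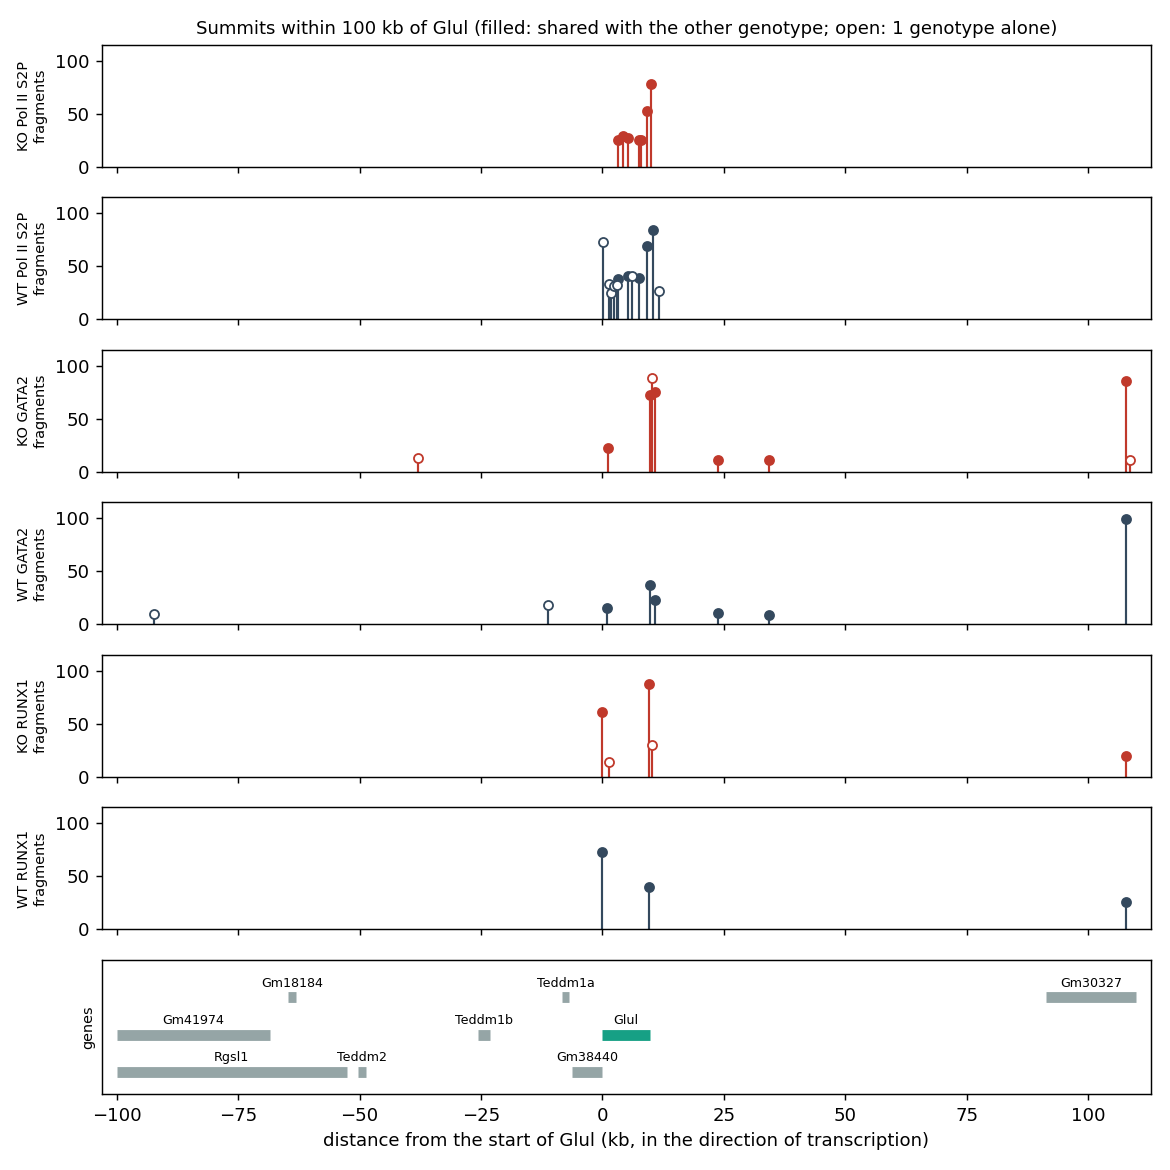
Summits of the 6 lists by distance from the start of Glul (kb, in the direction of transcription), with fragments at the summit on the vertical axes, KO above WT for each target, and the genes of the window at the bottom. Filled points are shared between genotypes and open points were called in 1 genotype alone; S2P is seen only at Glul and just after it, and the factor summits gather at the end of the gene and near 108 kb.

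S2P covered 24.1% of Glul in KO cells, against 75.5% in WT cells, a difference of −51.4 percentage points, or 2365 against 7398 bp. These are the values that chose the gene, and they are given as a description. The genes ranked next, Ctbp2, Ubqln2 and Pet117, differed by −38.8, −36.3 and −35.5 points. Among the 9986 genes with coverage the median difference was 0.67 points, 3.91% were lower in KO by at least 10 points and 5.76% were higher by as much. When S2P peaks less than 1 kb apart were joined, Glul was covered for 47.4% in KO and 99.8% in WT and ranked 24 by loss.

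The lower KO coverage was spread over the body of the gene and differed least past its end. In 4 equal parts from start to end, coverage was 0%, 17.9%, 12.5% and 66.1% in KO, against 38.7%, 84.0%, 87.2% and 92.2% in WT. In the 2 kb after the end it was 70.2% in KO and 81.7% in WT. The middle parts differed most, by −66.1 and −74.7 points. Over 2874 covered genes of known strand the median differences of the 4 parts were −0.88, 0, 0.08 and 0 points, with the lowest 5% of genes at −22.7, −22.6, −14.3 and −7.44 points or below. For the 2 kb after the end the median was 0 and the lowest 5% lay at −6.52 points or below, so the −11.5 points of Glul were among them. The 4 parts make up the difference that chose the gene, and the S2P peak over its end runs on past it. Nothing is therefore read from the place of Glul among these genes.

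**Figure D2:**
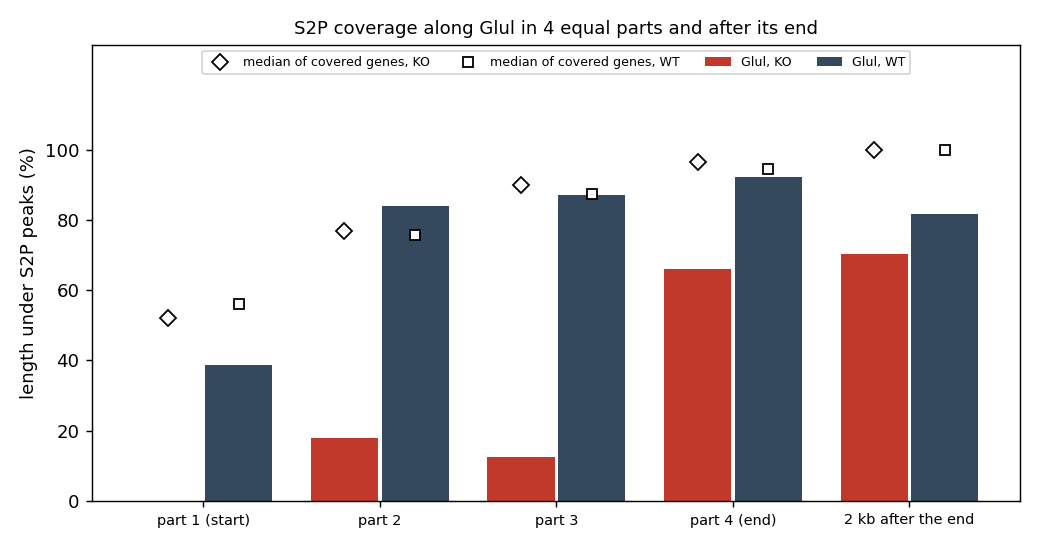
Percentage of length under S2P peaks in 4 equal parts of Glul and in the 2 kb after its end, with KO bars left of WT bars, and the median of 2874 covered genes as open diamonds (KO) and squares (WT). The KO bars run from 0% at the start to 66.1% in the last part, below the WT bars in every part, while the medians of the covered genes are close in both genotypes.

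The KO list had 7 S2P peaks at Glul and just after it, with 25, 29, 27, 25, 25, 52 and 78 fragments at their summits from start to end. The WT list had 12, with 73, 33, 25, 31, 32, 38, 41, 41, 39, 69, 84 and 27 fragments. In both lists the highest summit lay just past the end of the gene, 287 bp (KO) and 511 bp (WT) after it. The WT list had in addition a summit of 73 fragments (57.2 to 91.8) at 88 bp from the start, its highest within the gene. The local background at that start summit was 31.9 fragments, against 7.41 to 13.1 at the other WT summits and 7.55 to 10.4 at the KO summits. The WT peak there covered 82.0% of Mir8114, a microRNA gene of 111 bp at the start of Glul, and the KO list covered none of it. Of the KO peaks 0 of 7 were called in KO alone, against 26.3% of the whole KO list. Of the WT peaks 7 of 12 were called in WT alone, against 19.6% of the whole WT list. These shares come from the contrast that chose the gene, and nothing is read from them.

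Summit heights could be compared by part only where both lists had a summit in the part, which leaves out the first, with no KO summit. The strongest summits of a part need not mark the same site. In the second part they lay 4183 bp (KO) and 3176 bp (WT) from the start, in peaks that did not overlap. The strongest summit of the second part held 29 fragments (19.4 to 41.6) in KO and 38 (26.9 to 52.2) in WT, a ratio of 0.76 after scaling. In the next part the values were 27 (17.8 to 39.3) in KO and 41 (29.4 to 55.6) in WT, a ratio of 0.65, and in the last part 52 (38.8 to 68.2) and 69 (53.7 to 87.3), a ratio of 0.75. Past the end they were 78 (61.7 to 97.3) in KO and 84 (67.0 to 104) in WT, a ratio of 0.92. Of these pairs only the last came from 1 peak overlapping 1 other. Such pairs also lay 3.12 and 7.54 kb from the start (KO summits). The first held 25 fragments (16.2 to 36.9) in KO and 38 (26.9 to 52.2) in WT, a scaled ratio of 0.65. The second held 25 (16.2 to 36.9) in KO and 39 (27.7 to 53.3) in WT, a scaled ratio of 0.64. The counting intervals of KO and WT overlapped in each of these pairs. Covered length was 3.13 times shorter in KO, but the 2 measures cannot be set against each other, since weaker KO summits were not called. A stretch counts as covered only where the caller found a peak, and at a local background near 10.4 fragments, as at KO summits in the body of Glul, the lowest summit called in the KO list held 21 fragments.

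No other S2P peak was called in the window. Of the 9 other genes in it, Rgsl1, Teddm2, Teddm1b and Teddm1a, the lncRNA genes Gm41974, Gm38440 and Gm30327 and the pseudogene Gm18184 had no S2P peak in either list, and Mir8114 overlaps the start of Glul. The nearest S2P peak after those of the gene was 1187 kb (KO) and 1186 kb (WT) away. At Glul the first called S2P peak began 3071 bp after the start of the gene in KO and 17 bp after it in WT. The last called peak ended 1404 bp (KO) and 2003 bp (WT) past the end. At a background near 31.9 fragments, as at the WT start summit, the lowest summit called in the KO list held 49 fragments. The KO background at the start is not known, so S2P below the calling limit there cannot be told from none.

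**Figure D3:**
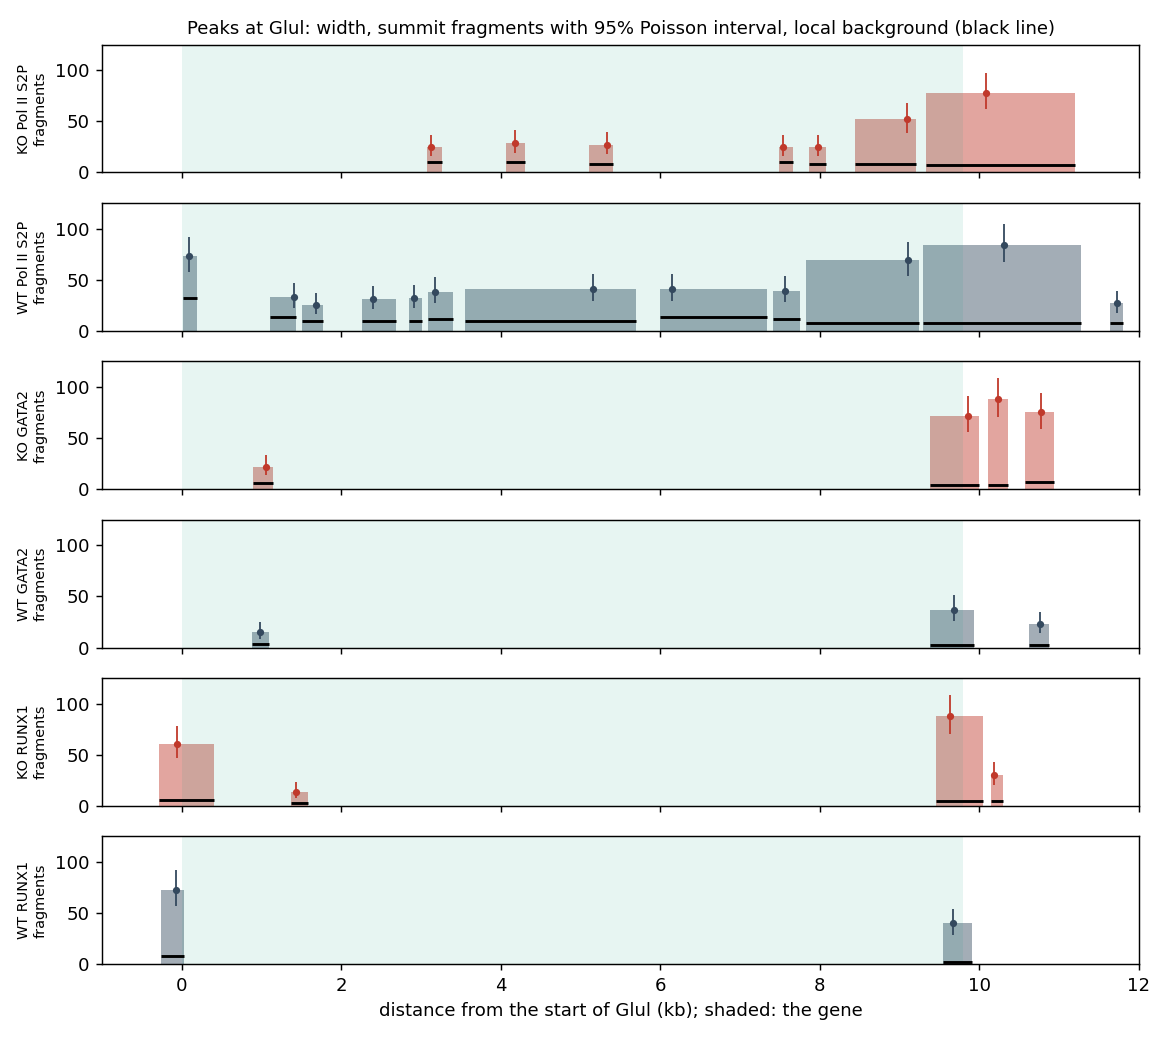
Peaks of the 6 lists at Glul by distance from its start (kb), with the gene shaded, bars as wide as each peak and as high as its summit fragments, points with exact Poisson 95% intervals, and the local background as black lines; KO is above WT for each target. KO S2P peaks are few and narrow before 8 kb, and the KO GATA2 and RUNX1 peaks around 10 kb are higher than those in WT.

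GATA2 occupied the end of Glul in both genotypes and had more fragments there in KO, where local background was higher too. At the shared peak over the gene end GATA2 had 72 fragments (56.3 to 90.7) in KO, with its summit 63 bp past the end, and 37 (26.1 to 51.0) in WT, with its summit 112 bp before the end. The scaled ratio was 1.83 (log2 0.88, counting interval 0.28 to 1.49). At the shared peak about 1 kb past the end GATA2 had 75 fragments (59.0 to 94.0) in KO and 23 (14.6 to 34.5) in WT, a scaled ratio of 3.07 (log2 1.62, interval 0.93 to 2.36). Counting intervals did not overlap at either site. Of 53508 shared GATA2 summits, whose median log2 difference was 0.11, 4.69% and 0.198% had a difference at least as high as these.

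Between those peaks lay a GATA2 peak called in KO alone (chromosome 1, 153910031 to 153910284), with 88 fragments (70.6 to 108) at a summit 433 bp past the end of Glul. By fragments it was level with the distal site within Gm30327 (86 fragments), whose deposited fold was higher (24.1, against 18.5 here). It ranked 14 by fragments among 25163 GATA2 peaks called in KO alone. The WT list had no peak there; at a background of about 2.32 fragments, as at the neighbouring WT sites, the lowest summit it called held 9 fragments. The peak lay under the strongest S2P peak of Glul in both genotypes.

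RUNX1 also had more fragments at the end of Glul in KO, again with a higher local background. At the shared peak over the gene end RUNX1 had 88 fragments (70.6 to 108) in KO and 40 (28.6 to 54.5) in WT, at summits 159 and 122 bp before the end, a scaled ratio of 2.16 (log2 1.11, interval 0.56 to 1.69). The intervals did not overlap, and 1.65% of 23560 shared RUNX1 summits, with a median log2 of 0.19, had a difference at least as high. A second RUNX1 peak, called in KO alone, held 30 fragments (20.2 to 42.8) at 384 bp past the end, and it overlapped the GATA2 peak called in KO alone.

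The local background at the end of Glul was higher in KO as well. It was 4.42, 3.81 and 6.97 fragments at the 3 KO GATA2 summits there, against 2.32 at both WT GATA2 summits, and 4.61 at both KO RUNX1 summits, against 2.13 at the WT RUNX1 summit. The authors' deposited fold enrichment divides fragments by this background after the same constant is added to both. It was 13.5 in KO and 11.4 in WT at the GATA2 peak over the gene end, a ratio of 1.18. At the GATA2 peak past the end it was 9.54 in KO and 7.23 in WT, a ratio of 1.32. For RUNX1 over the gene end it was 15.9 in KO and 13.1 in WT, a ratio of 1.21. Each KO fold was above its WT fold, and the 3 ratios were below the lower ends of the counting intervals of the fragment ratios. At these 3 shared sites background was higher in KO by about the same factor as fragments. The added constant lowers the fold most where background is low, so these ratios do not show higher enrichment over background in KO. The S2P background at the same place was 7.55 fragments in KO and 7.41 in WT. The part of the background in the factor differences was not tested.

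**Figure D4:**
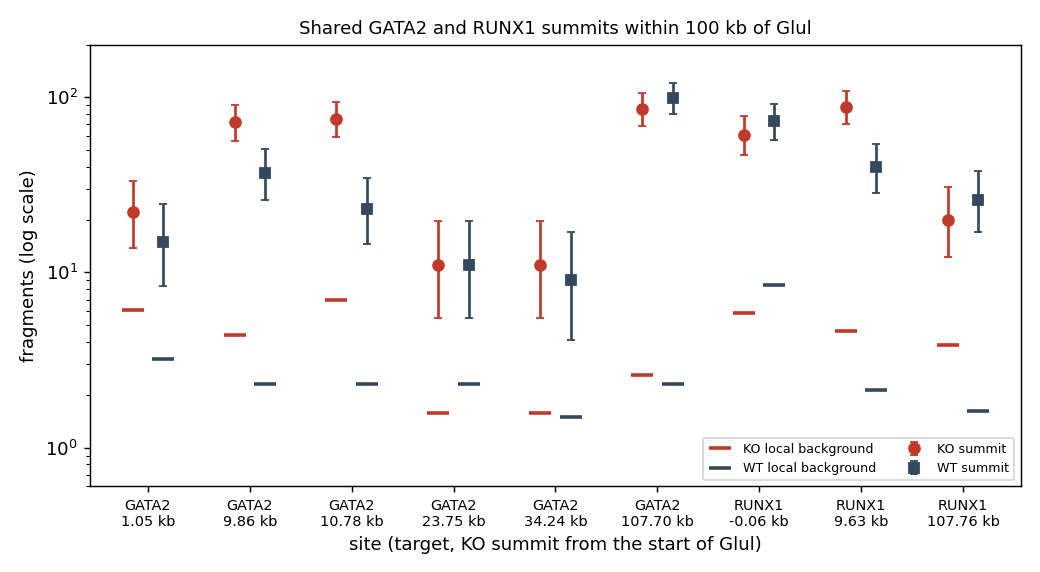
Fragments (log scale) at the 6 GATA2 and 3 RUNX1 summits shared by KO (circles, left) and WT (squares, right) within 100 kb of Glul, with exact Poisson 95% intervals and the local background as short bars. The intervals of KO and WT separate at the GATA2 sites at 9.86 and 10.78 kb and at the RUNX1 site at 9.63 kb, where the KO background is also higher, and overlap at the other 6.

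At the start of the gene the factors differed within counting error. RUNX1 over the promoter had 61 fragments (46.7 to 78.4) in KO and 73 (57.2 to 91.8) in WT (log2 −0.28, interval −0.80 to 0.23). By the deposited fold enrichment the direction turned, with 9.06 in KO and 7.77 in WT, at local backgrounds of 5.84 and 8.53 fragments. This peak also spans the start of Gm38440, an lncRNA gene read the other way whose nearest base is 153 bp from Glul. GATA2 within the gene, about 1 kb from the start, had 22 fragments (13.8 to 33.3) in KO and 15 (8.40 to 24.7) in WT, and its direction turned too, with deposited folds of 3.24 in KO and 3.81 in WT. Nearby, at 1.43 kb, the KO list alone had a weak RUNX1 peak of 14 fragments (7.65 to 23.5).

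The strongest distal site lay 97.9 kb past the end, within Gm30327, and carried both factors in both genotypes. GATA2 had 86 fragments (68.8 to 106) there in KO and 99 (80.5 to 121) in WT (log2 −0.29, interval −0.72 to 0.14). RUNX1 had 20 (12.2 to 30.9) in KO and 26 (17.0 to 38.1) in WT (log2 −0.40, interval −1.32 to 0.49), with deposited folds of 4.34 in KO and 10.3 in WT at backgrounds of 3.84 and 1.63 fragments. These intervals include 0, so no difference was detectable at this depth.

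The remaining GATA2 peaks of the window were weak. Shared peaks 23.8 and 34.2 kb from the start held 11 and 11 fragments in KO and 11 and 9 in WT. In KO alone there were peaks of 13 fragments 37.9 kb before the start and of 11 fragments within Gm30327. In WT alone there were peaks of 18 fragments (10.7 to 28.4) 11.2 kb before the start and of 10 fragments 92.4 kb before it, where Rgsl1 and Gm41974 overlap.

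Counted over the window, GATA2 had 9 peaks in KO and 8 in WT, and RUNX1 had 5 in KO and 3 in WT. Called in 1 genotype alone were 3 of the 9 KO GATA2 peaks, against 31.2% of the whole KO list, and 2 of the 8 WT GATA2 peaks, against 18.5% of the WT list. For RUNX1 these were 2 of 5 KO peaks, against 30.4%, and 0 of 3 WT peaks, against 13.4%. With so few peaks the counts are near the shares of the whole lists. GATA2 overlapped 3 of 5 RUNX1 peaks in KO and 2 of 3 in WT, and over the whole lists 52.4% (KO) and 53.9% (WT). The overlapping pairs were those over the gene end, at the distal site and, in KO, at the site called in KO alone.

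Genes that use, move or take apart glutamine and glutamate were taken as a list beside Glul. Of 40 listed genes other than Glul 33 had coverage, and 19 of them were covered for at least 50% in both genotypes. Lower in KO by at least 10 points was 1 (3.03%, against 3.91% of all genes with coverage), higher were 2 (6.06%, against 5.76%), and 30 lay within 10 points. The median difference was 1.21 points, against 0.67 for all genes. With peaks under 1 kb apart joined, 5 were lower (15.2%, against 7.47% of all genes with coverage) and 3 higher (9.09%, against 10.8%).

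Differences of that list lay in both directions. Pycr1, which makes proline from a product of glutamate, was covered for 53.7% in KO and 23.9% in WT. Gfpt1, which uses glutamine to make amino sugars, had 83.0% in KO and 73.9% in WT, and the neutral amino acid transporter gene Slc1a4 had 16.4% in KO and 7.47% in WT. Ppat, whose enzyme uses glutamine at the committing step of purine synthesis, was the one lower, with 40.9% in KO and 53.6% in WT.

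The core genes of glutamine handling named here differed by under 5 points. Glud1, the glutamate dehydrogenase gene, was covered for 19.3% in KO and 22.0% in WT. The glutamine transporter genes Slc1a5 and Slc38a2 had 71.3% and 100% in KO, against 69.6% and 95.3% in WT. Asns, the asparagine synthetase gene, had 99.6% in KO and 99.7% in WT. Lgsn, a lens relative of Glul, had none in either list.

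The genes with S2P values nearest to those of Glul are given as a description. Glul was chosen as the extreme of these same values, so a lack of close neighbours is not a result. By straight-line distance over the pair of coverage values, that is, over 2 lists, the nearest of the protein-coding genes were Fzd9, a Wnt receptor gene, Ccdc71l, the prefoldin subunit gene Pfdn2, the mitochondrial oxidase gene Gfer and the histone gene H2bc4, at 13.9 to 18.0 points from Glul. Fzd9 was covered for 36.6% in KO and 69.4% in WT, and Ccdc71l for 38.7% in KO and 73.0% in WT. Pfdn2 had 28.2% in KO and 59.8% in WT, Gfer 37.7% in KO and 63.9% in WT, and H2bc4 25.4% in KO and 57.6% in WT. Split at 50% of its length, Glul had 8.96% (KO) and 61.4% (WT) on the start side and 39.3% (KO) and 89.7% (WT) on the end side. On the start side Fzd9 had 0% in KO and 46.9% in WT, and on the end side 73.2% in KO and 91.9% in WT, whereas Ccdc71l differed more on its end side, with 16.4% in KO and 65.9% in WT.

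**Figure D5:**
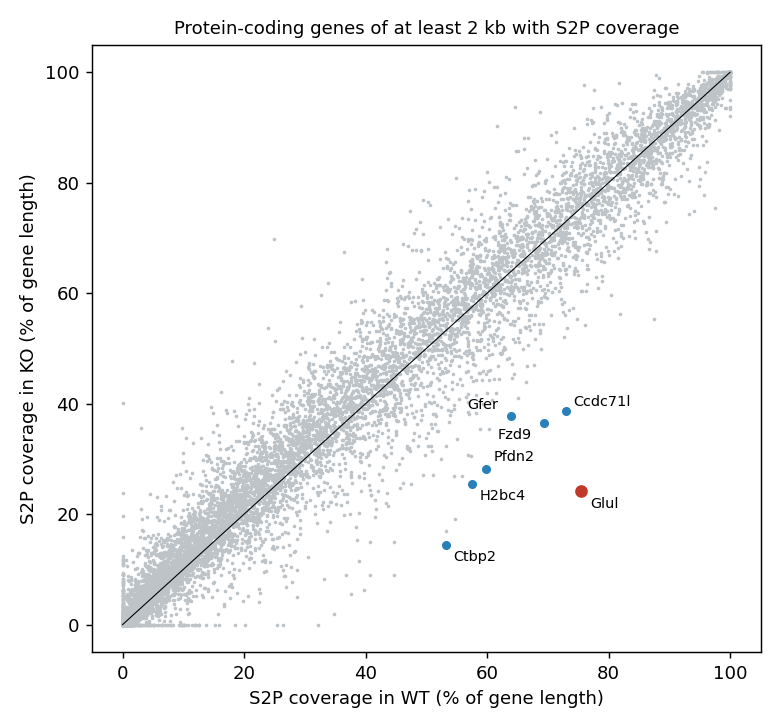
S2P coverage as a percentage of gene length in KO (vertical axis) against WT (horizontal axis) for 9986 protein-coding genes of at least 2 kb with coverage, with Glul in red and the 5 nearest genes and Ctbp2 in blue. Glul, which was chosen by this difference, stands at 24.1% in KO and 75.5% in WT, apart from the cloud along the line of equal coverage.

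At Glul both factors had a peak called in KO alone at one site. Such a pair, a GATA2 peak and an overlapping RUNX1 peak each called in KO alone, lay within 5 kb of 228 of the 3489 covered genes (6.53%) and of 0 of those 5, a count near that share. Any GATA2 peak called in KO alone lay within 5 kb of 56.1% of them and any such RUNX1 peak near 55.5%. Of the 5 genes, Ccdc71l, Pfdn2 and H2bc4 had 1 such GATA2 peak each, and Ccdc71l, Pfdn2 and Gfer 1 such RUNX1 peak each, against 1 and 2 at Glul.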

How the data were processed

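ChIP-seq peak lists were used as deposited; the 6 input samples were not analysed here. Bowtie2 2.2.1, MACS2 2.1.0 and GRCm38 are named without roles or settings, per the submitters' processing notes. The deposited narrowPeak lists give a peak score (10 times −log10 q, whole part), a fold enrichment over the local background, −log10 p and −log10 q of the summit, at q of 0.05 or lower. How the S2P replicates were combined is not stated.

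Fragments and background at each summit were worked back from the deposited columns, fold enrichment with −log10 p, under the caller's Poisson model. In every list 100% of summits gave whole fragments within 0.005 of the deposited −log10 p, with a scale of 0.961 for the KO S2P list; at 0.93 times the scale used, 2.67% to 5.33% of 150 summits did. The steps were tested on simulated data. Backgrounds are in ChIP fragments. The labels give 1 input per genotype beside the factor libraries, so the factor backgrounds may share it.

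Coverage is the percentage of a gene, between its RefSeq ends (GRCm38.p6), under S2P peaks. Peaks overlapping by at least 1 bp are shared. Ratios used summits where 1 peak overlapped 1 other, with exact Clopper-Pearson intervals converted to ratios. S2P ratios by part of Glul instead used the strongest summit of the part in each list. Intervals cover counting error only, since each genotype had a single list for each target. Reads carried no molecular identifiers, and the intervals take no account of copied fragments. Peaks or genes were counted with Python 3.11.15, pandas 2.3.3 and scipy 1.17.1. Named were Glul, all genes of the window, of the glutamine list the 5 with the largest difference and 5 core genes (some genes of this list are not reported here), and the 5 nearest patterns; Ctbp2, Ubqln2, Pet117, Lgsn and the markers named singly were chosen after their values were seen. The members and lists were chosen with earlier results of these data known. Genome sequence beyond the promoter table was not used here. Alternatives were a stricter q, lists of equal length, joined peaks, a stricter overlap, other windows and other scalings.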

Additional observations from a re-analysis of the deposited data

How the results depend on the processing

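No paired analysis was possible because the 2 S2P replicates of a genotype stand in 1 list, and for the same reason no replicate could be left out. A q of 0.01 or lists of equal length left the Glul difference at −51.4 points; it was −52.4 with S2P peaks under 1 kb apart joined, and, in alternatives chosen after seeing the data, −52.6 at a q of 0.0001 and −44.6 with 2 kb after the end included. Joining raised the glutamine genes lower by at least 10 points to 5 of 33 (15.2%), from 1, and the share of all genes to 7.47%, from 3.91%. With lists of equal length the window held 5 KO GATA2 peaks, 5 WT GATA2 peaks were called in WT alone and 1 RUNX1 peak in KO alone, since weak KO peaks were removed. Within 50 kb 1 GATA2 peak was called in WT alone. Within 200 kb there were 24 KO and 22 WT GATA2 peaks (8 and 7 in 1 genotype alone) and 12 KO and 9 WT RUNX1 peaks (4 and 1 alone). A q of 0.01 and an overlap of 50% changed no peak count. Setting the median of all shared summits to 0 turned no direction. The deposited fold enrichment, added after seeing the data, turned the log2 KO over WT of GATA2 about 1 kb from the start to −0.23, of GATA2 at 23.8 kb to 0.37 and of RUNX1 at the promoter to 0.22; over the gene end it gave 0.23 (GATA2) and 0.28 (RUNX1), and past it 0.40 (GATA2). Depth limited weak sites: with 11 fragments in each genotype the counting interval ran from −1.43 to 1.26 on the log2 scale.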

Other observations

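Across the genome 859 GATA2 peaks called in KO alone overlapped a RUNX1 peak called in KO alone, 3.41% of the 25163 such GATA2 peaks, and the site past the end of Glul ranked 6 among them by GATA2 fragments. Protein-coding genes of at least 2 kb with such a pair within 5 kb numbered 645, of which 566 had S2P coverage. Their median difference in S2P coverage was 0.88 points (KO minus WT), against 0.67 for all genes with coverage. Lower in KO by at least 10 points were 15 of them (2.65%, against 3.91% of all genes with coverage), Glul included, and higher were 37 (6.54%, against 5.76%).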
